A study of Homo sapiens with 6 samples.

Results

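SAMD4B and UNKL, a pair of genes for cytoplasmic RNA-binding proteins, were higher in si-CyCoNP than in si-SCR cells, whereas their paralogs SAMD4A, close to silent, and UNK passed no test. Within the ELAVL family ELAVL3 rose and ELAVL4 fell while the summed level of the family differed by less than its spread. The ELAVL3 call was lost without si-CyCoNP replicate 2, and neither call held when length-scaled levels were tested on a log2 scale. The share of the members given a test that passed it was near that of all genes. The genes described here are 9 RNA binders of 4 families, SAMD4A and SAMD4B, UNK and UNKL, ELAVL1 to ELAVL4, and PUM2, picked by symbol from the 60676 genes listed in the deposited tables. SAMD4B and UNKL were included because they rose in this same contrast, so that their values are a description and carry no test. The other 7 were listed with them as regulators of mRNA stability and translation.

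The cells were SK-N-BE, a neuroblastoma line of human origin with neuronal traits under retinoic acid, and RNA was taken from them after 1.5 days of differentiation with 10 μM of this agent. Control cells received scrambled small interfering RNAs (si-SCR, 3 libraries) and the other cells a pool of small interfering RNAs against CyCoNP (si-CyCoNP, 3 libraries), a cytoplasmic long noncoding RNA encoded by LINC02381. Both groups are thus transfected and differentiating, and the model is 1 cell line with transient silencing. The labels number the replicates without naming separate cultures, and p-values therefore measure the spread between these libraries, which may be technical.

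SAMD4A and SAMD4B are the human relatives of fly Smaug, which binds short RNA hairpins through a SAM domain and brings the CCR4-NOT deadenylase to the mRNA. UNK and UNKL are CCCH zinc finger proteins, and UNK binds UAG-containing mRNAs in neurons, represses their translation and shapes early neuronal morphology. The ELAVL proteins bind U-rich stretches and mostly stabilise their targets. ELAVL1 (HuR) is made in nearly every cell, while ELAVL2, ELAVL3 and ELAVL4 (HuB, HuC and HuD) are neuronal. PUM2 binds a motif of 8 bases that begins with UGUA in 3′UTRs and lowers the stability or translation of its targets.

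The total count per library was 3762009 to 4799407, and 13966 genes with a mean of at least 1 FPKM (fragments scaled to the length of the gene and to the total count of the library) in either group were tested. The targeted gene LINC02381 had 208 to 315 counts in the controls and 12 to 30 after silencing, and its log2 fold change was -3.78 (SE 0.19, adjusted p = 6.95e-14). All 10 markers of sympathetic neuroblasts checked were expressed at 1 FPKM or more, with a summed level of 2492 to 2966 FPKM in the controls and 2087 to 2273 FPKM after silencing. Blood and endothelial markers summed to at most 0.152 FPKM in any library. The 6 Schwann cell and glial markers, of which SOX10 was at 0 in all libraries, summed to 1.51 to 3.37 FPKM in the controls and to 8.78 to 14.7 FPKM after silencing. Mesenchymal markers summed to 53.3 to 61.5 FPKM and to 46.1 to 52.9 FPKM, with VIM and FN1 the only members expressed of 6 and PRRX1 and TWIST2 at 0 in all libraries. This sum hides opposite changes, since VIM fell from 56.3 to 43.9 FPKM (log2 fold change -0.43, adjusted p = 0.000412) and FN1 rose from 0.697 to 5.41 FPKM (2.88, adjusted p = 1.3e-13). Fibroblast markers summed to 5.31 to 9.16 FPKM and to 7.10 to 8.85 FPKM, with 3 of 5 expressed and COL1A2 at 0. Within that list COL1A1 rose by 1.68 (adjusted p = 8.62e-06) and DCN fell by 0.82 (adjusted p = 0.000224) on the log2 scale. COL1A1, at 0.45 FPKM in the controls and 1.50 FPKM after silencing, and FN1 had control means under 1 FPKM. Both entered the test only through the si-CyCoNP group, where they were high, so their p-values are no separate support for a rise. The part of these lists in the results below was not tested, and in bulk RNA fewer cells of a type and less RNA per cell cannot be told apart.

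To show what the 3′UTRs of these genes hold, sites were read from the canonical transcripts on GRCh38, on the mRNA strand and 5′ to 3′. The microRNA miR-4492 was chosen because the study examined it as a partner of CyCoNP. Its mature sequence (RefSeq, chr11:118910765-118910781, plus strand) is printed with bases 2 to 8, the seed, in capitals, and the matching DNA word CCAGCCC is in capitals in the 3′UTR sites of SAMD4B and UNKL. The word is not particular to these genes, since it also occurs in ELAVL3 and in UNK, which passed no test, and their sites are not printed.
miR-4492: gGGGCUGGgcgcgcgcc
SAMD4B, chr19:39384320-39384340, plus strand: ttttcctCCAGCCCtggctac
SAMD4B, chr19:39384603-39384623, plus strand: attcgtcCCAGCCCcagagtc
SAMD4B, chr19:39385499-39385519, plus strand: tcccgctCCAGCCCcctcccc
UNKL, chr16:1365030-1365050, minus strand: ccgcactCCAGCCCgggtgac

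For the genes that fell or showed no call, the sites shown are those of the PUM motif, TGTANATA in DNA letters, since PUM2 is itself among the genes described. The motif is in capitals, and these 7 sites are all that the 3′UTRs of the 9 genes hold.
UNK, chr17:75824623-75824644, plus strand: gtatatcTGTACATAgatatag
ELAVL2, chr9:23691292-23691313, minus strand: tgtgtaaTGTAAATAagacctt
ELAVL2, chr9:23691083-23691104, minus strand: ttttgtcTGTAGATAgtctagc
ELAVL2, chr9:23690413-23690434, minus strand: aaatacaTGTATATActtaaaa
ELAVL4, chr1:50202650-50202671, plus strand: gtgtatgTGTATATAcaatata
PUM2, chr2:20251146-20251167, minus strand: atagagaTGTATATAgaattat
PUM2, chr2:20250886-20250907, minus strand: gaaatatTGTATATActtacat

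SAMD4B (ENSG00000179134, chr19:39342421-39385710, plus strand) was counted 408, 402 and 576 times in the controls and 1029, 1039 and 976 times after silencing. Scaled to length and depth, these are 11.8, 13.3 and 14.9 FPKM against 26.6, 30.3 and 29.2 FPKM. The lowest si-CyCoNP library thus lay far above the highest si-SCR library, and si-SCR replicate 3 was the control nearest to it. The mean went from 13.3 ± 1.58 to 28.7 ± 1.92 FPKM (SD, n = 3), a log2 fold change of 1.04 (SE 0.091). It was 0.97, under the log2 value of 1 used for calls, without si-SCR replicate 1. On this log2 scale SAMD4B stayed below the 95th percentile of all genes tested, which was 1.18.

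SAMD4A (ENSG00000020577, chr14:54566117-54793315, plus strand) was close to silent, with 7, 10 and 8 counts in the controls and 5, 4 and 3 in silenced cells, at 0.059 to 0.216 FPKM. It did not pass the filter on low values. Its groups did not overlap, but in a fit without the filter its log2 fold change of -1.15 had a standard error of 0.62 (adjusted p = 0.261), and no change was detectable at this depth. SAMD4B was therefore almost the whole of the SAMD4 signal in both groups, with a summed level of 13.5 FPKM before and 28.8 FPKM after silencing. The ratio of SAMD4B to SAMD4A was 61.5 to 110.2 in the controls and 315.0 to 498.0 after silencing, and it rests on the few SAMD4A counts.

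UNKL (ENSG00000059145, chr16:1363205-1414751, minus strand) was counted 129, 100 and 208 times in the controls and 683, 666 and 653 times after silencing. On the FPKM scale these levels were 4.01, 3.55 and 5.80 against 19.0, 20.9 and 21.0. The groups were far apart, and si-SCR replicate 3 was again the control nearest to the silenced cells. The means were 4.45 ± 1.19 and 20.3 ± 1.14 FPKM. The log2 fold change of 2.11 (SE 0.122) lay well above the 95th percentile of all genes. Without si-SCR replicate 3 it was 2.33. The si-SCR libraries varied more, with a coefficient of variation of 26.8% where counting error alone gives 8.29%, against 5.62% and 3.87% in si-CyCoNP libraries.

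UNK (ENSG00000132478, chr17:75784806-75825799, plus strand), the better known paralog, had 12.2, 10.1 and 11.4 FPKM in the controls and 12.3, 14.6 and 11.2 FPKM in silenced cells. The groups overlapped, and the log2 fold change of 0.11 (SE 0.112) did not pass the test (adjusted p = 0.527). In si-SCR cells UNK was the more abundant of the pair, with 0.329, 0.350 and 0.511 UNKL for each UNK on the FPKM scale. In si-CyCoNP cells the order was turned round in every library, with ratios of 1.55, 1.44 and 1.87. Their summed level went from 15.7 to 33 FPKM. These ratios hold a gene chosen for its rise and were not tested.

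**Figure D1:**
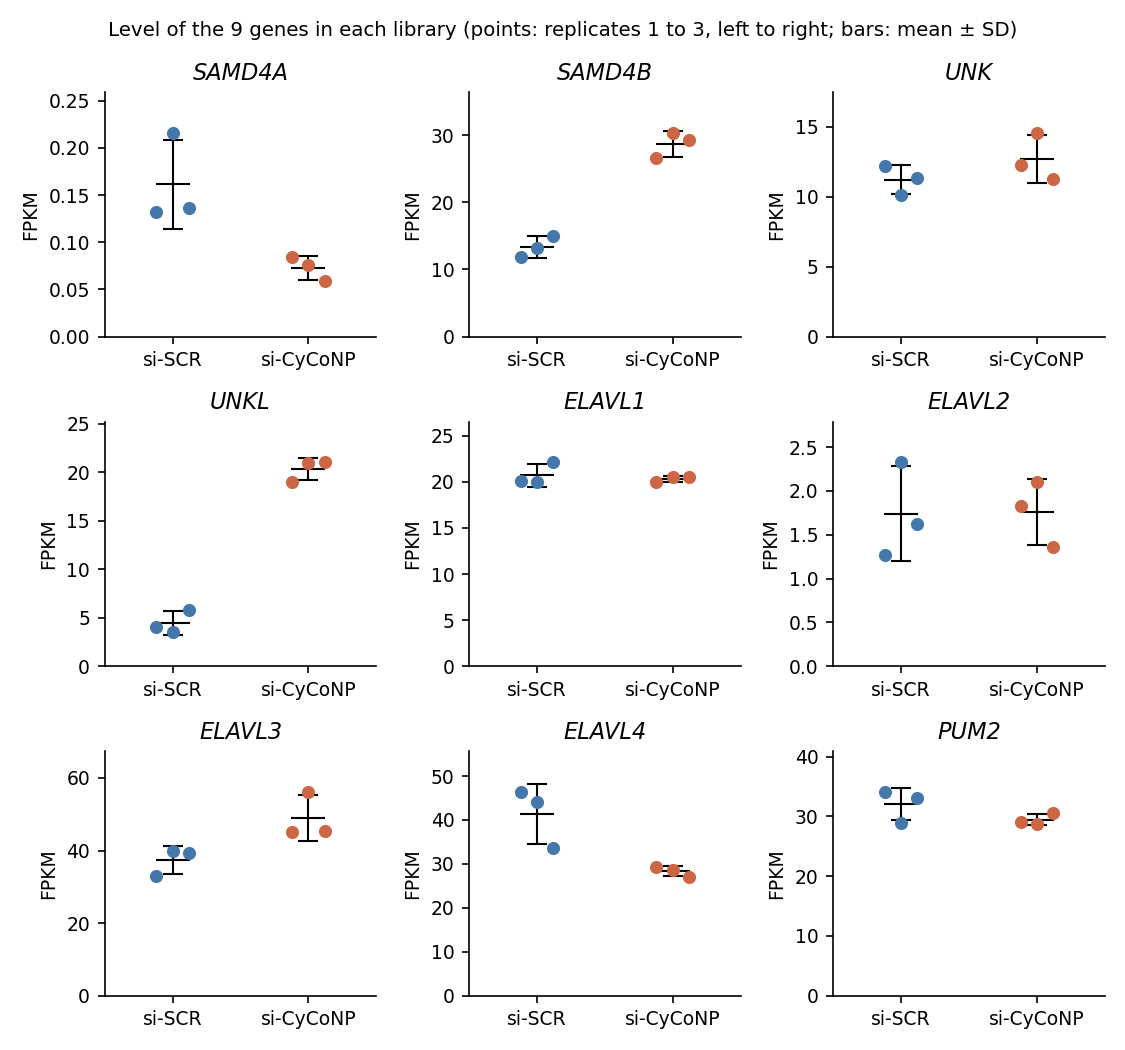
Level of each of the 9 genes in FPKM (vertical axes, each from 0) in the si-SCR and si-CyCoNP libraries, where points are libraries, replicates 1 to 3 from left to right, and bars give mean ± SD. SAMD4B and UNKL lie between 26.6 and 30.3 and between 19.0 and 21.0 FPKM in si-CyCoNP libraries, above all si-SCR libraries, whereas the points of UNK, ELAVL1, ELAVL2 and PUM2 overlap.

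SAMD4B and UNKL were chosen for their rise, so no call is counted for them. Over all genes tested, 2.28% passed an adjusted p of 0.05 with a log2 fold change above 1 and 2.98% with one below -1. Among the 6 other members tested, 2 passed the adjusted p, ELAVL3 upwards and ELAVL4 downwards, both with a change under 1 on the log2 scale. Across all genes 28.4% passed the adjusted p, 14.2% in each direction, so that 2 of 6 is near the background. The groups did not overlap in FPKM for 2 of these 6, again ELAVL3 and ELAVL4, against 40.3% of all genes tested.

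ELAVL4 (ENSG00000162374, chr1:50024029-50203772, plus strand), the gene of the neuronal protein HuD, fell. It had 46.4, 44.1 and 33.7 FPKM in the controls and 29.2, 28.7 and 27.1 FPKM in silenced cells. Every silenced library was thus under every control, of which si-SCR replicate 3 was the nearest. The mean went from 41.4 ± 6.79 to 28.3 ± 1.09 FPKM, a log2 fold change of -0.62 (SE 0.1, adjusted p = 2.52e-05), or 0.652-fold. Leaving out 1 library at a time gave -0.77 to -0.51 on the log2 scale, all past the test. On log2(FPKM + 1) and log2(FPKM + 0.1) with limma the adjusted p was 0.0526 and 0.0649.

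ELAVL3 (ENSG00000196361, chr19:11451326-11481046, minus strand), which encodes HuC, a pan-neuronal marker, rose. It had 33.01, 39.9 and 39.2 FPKM in the controls and 45.0, 56.2 and 45.5 FPKM in silenced cells, and these groups did not overlap. The mean went from 37.4 ± 3.802 to 48.9 ± 6.32 FPKM, a log2 fold change of 0.32 (SE 0.093, adjusted p = 0.0106), or 1.25-fold. The call rests on si-CyCoNP replicate 2, the highest library, without which the log2 fold change was 0.21 and the adjusted p 0.129. It was also lost on log2(FPKM + 1), with an adjusted p of 0.0991, and on log2(FPKM + 0.1), with 0.117. An exon of ELAVL3 overlaps the gene ENSG00000267477 on the same strand, so that its counts are less certain.

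ELAVL1 (ENSG00000066044, chr19:7958573-8005659, minus strand), the ubiquitous HuR, had the smallest coefficient of variation of the 9 genes in both groups, with 20.1, 20.0 and 22.1 FPKM in the controls and 20.0, 20.5 and 20.6 FPKM in silenced cells. The groups overlapped, and the log2 fold change of -0.09 (SE 0.084) did not pass (adjusted p = 0.45). ELAVL2 (ENSG00000107105, chr9:23690104-23826337, minus strand), or HuB, was the rarest ELAVL mRNA, with 28, 45 and 40 counts in the controls and 45, 46 and 29 in silenced cells. Its means of 1.74 ± 0.539 and 1.76 ± 0.376 FPKM could not be told apart (log2 fold change -0.03, SE 0.257, adjusted p = 0.95). At that standard error a change as large as that of ELAVL3 was not detectable.

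Summed over the 4 genes, the ELAVL genes reached 101.2 ± 4.86 FPKM in the controls and 99.4 ± 7.08 FPKM after silencing (exact permutation test, two-sided, p = 0.7). The 3 neuronal genes summed to 80.5 ± 5.92 and 79.0 ± 6.98 FPKM (exact permutation test, two-sided, p = 0.9). What differed was the composition. ELAVL4 made up 46.1, 41.5 and 34.8% of the sum in the controls and 30.4, 26.7 and 28.7% after silencing. ELAVL3 made up 32.8, 37.5 and 40.6% in the controls and 46.9, 52.3 and 48.1% after silencing. Neither share overlapped between the groups, and the mean differences were -12.2 and 12.1 percentage points (exact permutation test, two-sided, p = 0.1 for each, the smallest p that 3 against 3 libraries allow). The ratio of ELAVL4 to ELAVL3 on the FPKM scale was 1.41, 1.11 and 0.859 in the controls and 0.649, 0.510 and 0.596 after silencing. ELAVL4 was the more abundant mRNA in 2 of 3 control libraries and ELAVL3 in every si-CyCoNP library. The shares of ELAVL1 (20.5 ± 2.13 and 20.6 ± 1.36%) and ELAVL2 (1.71 ± 0.466 and 1.77 ± 0.284%) overlapped, with p = 1.0 in the same exact permutation test. Shares of 1 sum are tied to each other, so the gain of ELAVL3 and the loss of ELAVL4 are not independent.

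**Figure D2:**
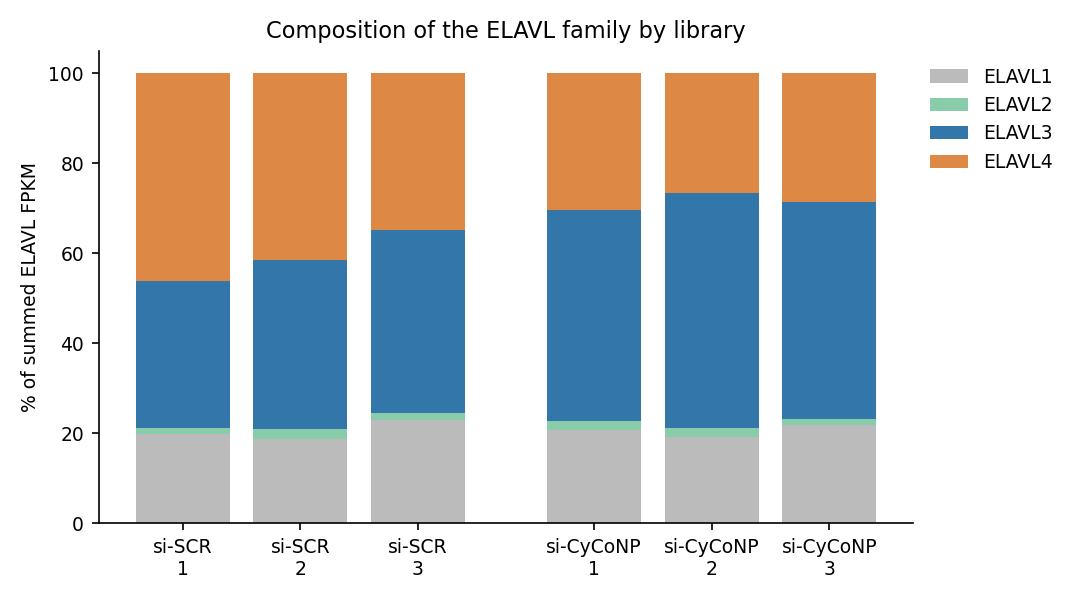
Share of each ELAVL gene in the summed ELAVL level (vertical axis, percent of FPKM) in the 6 libraries (horizontal axis, group and replicate). ELAVL3 grows from 32.8 to 40.6% in si-SCR to 46.9 to 52.3% in si-CyCoNP libraries, ELAVL4 shrinks from 34.8 to 46.1% to 26.7 to 30.4%, and the shares of ELAVL1 and ELAVL2 overlap between groups.

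PUM2 (ENSG00000055917, chr2:20248691-20352234, minus strand), the Pumilio repressor, had 34.1, 29.0 and 33.02 FPKM in the controls and 29.1, 28.8 and 30.5 FPKM in silenced cells. The groups overlapped, and the log2 fold change of -0.19 (SE 0.085) did not pass (adjusted p = 0.0973). Its range over the 14 alternatives ran from -0.25 to -0.11, with adjusted p-values from 0.0368 to 0.424.

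**Figure D3:**
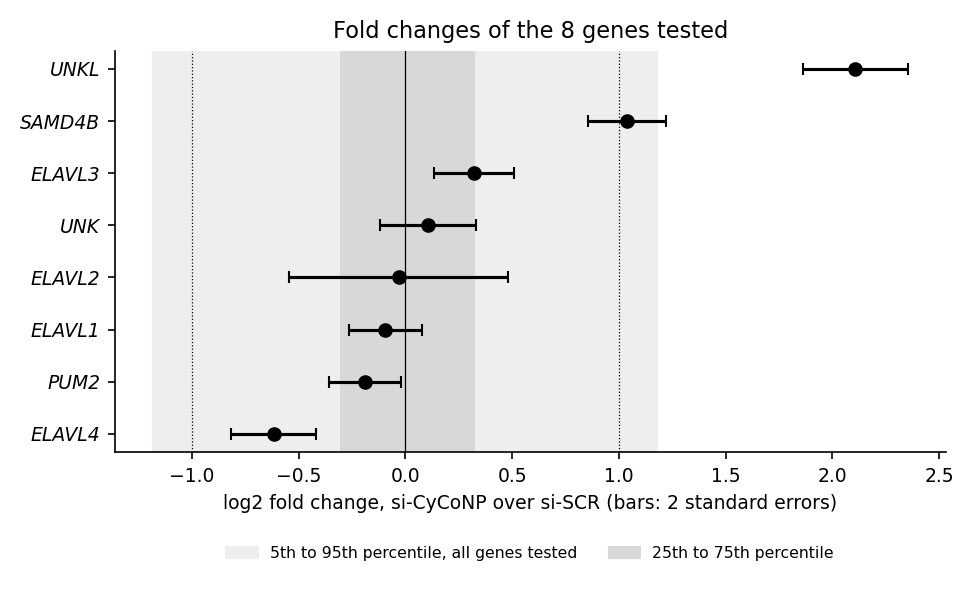
Log2 fold change of si-CyCoNP over si-SCR (horizontal axis) for the 8 members tested (vertical axis), with bars of 2 standard errors, dotted lines at the values used for calls, and shading for the middle range of all 13966 genes tested. UNKL at 2.11 lies outside the shading to the right, SAMD4B at 1.04 and ELAVL4 at -0.62 lie in the outer band, and the bars of UNK, ELAVL1 and ELAVL2 cross 0.

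Ordered by length-scaled level, the si-SCR cells had ELAVL4, ELAVL3 and PUM2 highest, with ranges over libraries that overlapped from each to the next. ELAVL1 followed, then SAMD4B and UNK, whose ranges overlapped, then UNKL, ELAVL2 and SAMD4A. In si-CyCoNP cells ELAVL3 stood alone at the top. PUM2, SAMD4B and ELAVL4 came next, with mean levels of 29.4, 28.7 and 28.3 FPKM and overlapping ranges. ELAVL1 and UNKL overlapped at 20.4 and 20.3 FPKM, and UNK, ELAVL2 and SAMD4A came last. UNKL, under UNK and under ELAVL1 in every control library, thus reached the level of ELAVL1, and SAMD4B that of PUM2.

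The 3′UTRs of the 9 genes differ in length and base composition. Those of SAMD4B (2173 bases), UNK (1382 bases), UNKL (3035 bases) and ELAVL3 (3200 bases) are rich in G and C, at 54.3, 54.3, 51.7 and 54.9%, while the other 5 are at 31.5 to 43.9%. The median over the 10488 tested coding genes with a 3′UTR was 41.8%. The 4 GC-rich 3′UTRs are also the 4 that hold the miR-4492 word, 3 times in SAMD4B and in ELAVL3, 2 times in UNK and 1 time in UNKL. The word was found in 23.4% of all these 3′UTRs, and 3 or more copies in 3.3%. Over all genes the median log2 fold change was 0.01 with the word and -0.01 without it, and 21.5% of the genes with the word passed the adjusted p upwards and 19.2% downwards.

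The PUM motif, found in 31.6% of all 3′UTRs, is absent from SAMD4A, SAMD4B, UNKL, ELAVL1 and ELAVL3 and occurs 3 times in ELAVL2, 2 times in PUM2 and 1 time each in UNK and ELAVL4. Genes with 2 or more PUM motifs, 11.8% of those with a 3′UTR, had a median log2 fold change of -0.05, and 17.0% of them passed the adjusted p upwards and 23.0% downwards, against 17.3 and 18.1% of all genes with a 3′UTR. Their 3′UTRs had a median length of 3658 bases, against 1397 bases for all. The ELAVL word TTTNTTT was present in 74.3% of 3′UTRs and is counted here with overlapping matches. It occurs 34 times in ELAVL1, 25 times in SAMD4A, 18 times in ELAVL4, 15 times in PUM2, 12 times in ELAVL2, 7 times each in UNKL and ELAVL3, 3 times in SAMD4B and not in UNK. Per kilobase of 3′UTR, ELAVL4 (6.94) and ELAVL1 (6.92) held most, followed by SAMD4A (5.72) and PUM2 (5.27). The site nearest to the stop codon in ELAVL4 and in ELAVL3 is printed with the word in capitals, as an example of each.
ELAVL4, chr1:50201638-50201658, plus strand: aaagattTTTCTTTtttgtca
ELAVL3, chr19:11454230-11454250, minus strand: gaaggttTTTGTTTctttttt

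**Figure D4:**
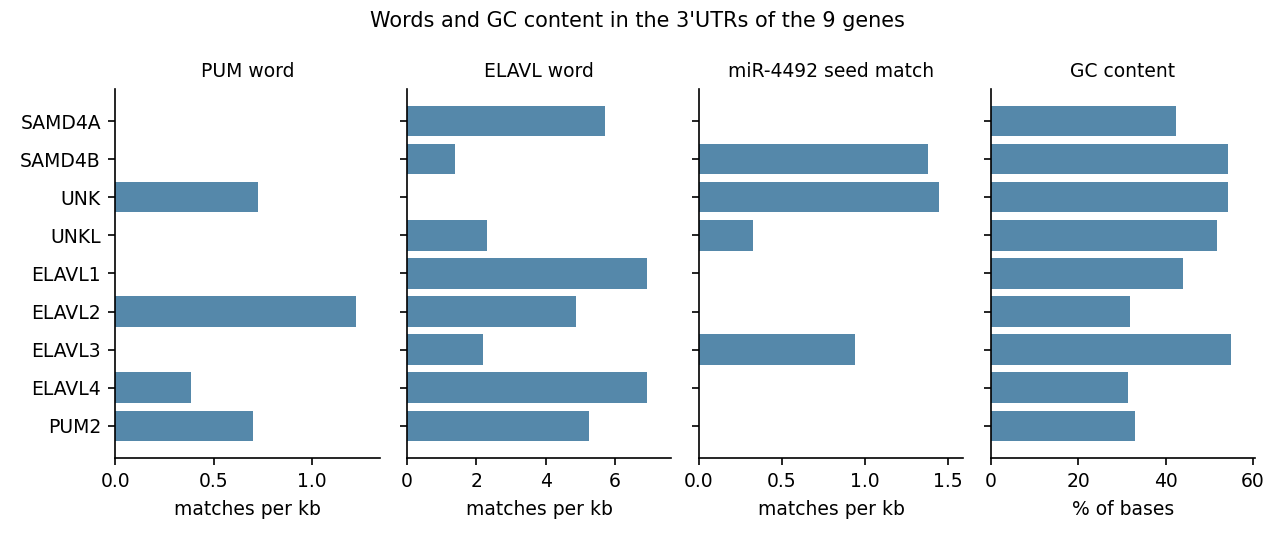
Matches per kilobase of 3′UTR (horizontal axes) to the PUM motif, the ELAVL word and the miR-4492 seed match, and the percent of G and C, for each of the 9 genes (vertical axis). The miR-4492 word is in SAMD4B, UNK, UNKL and ELAVL3, the 4 genes with 51.7 to 54.9% GC, and the PUM motif in UNK, ELAVL2, ELAVL4 and PUM2.

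CyCoNP itself (transcript LINC02381-201, 1369 bases) was compared with the same 3′UTRs for runs of perfect Watson-Crick complementarity. The longest run was 13 bases in UNKL and 10 bases in SAMD4B, against 10 to 13 bases in the other 7 genes, and 81.6% of all 3′UTRs held a run of 10 or more and 18.2% one of 13 or more. The runs of the members that rose the most are shown with the paired bases in capitals, and they face bases 914 to 926 and 196 to 205 of CyCoNP.
UNKL, chr16:1363641-1363663, minus strand: gcagtGGCTGGAAGGTGCcccgt
SAMD4B, chr19:39383726-39383745, plus strand: gctgaGGCCCGGGGAgttgg
In length these runs do not stand apart from those of the other members. The study reports SAMD4B mRNA among the RNAs recovered with CyCoNP in its pull-down, and it checked this by RT-qPCR. Those pull-down samples are not among the libraries described here, and whether these runs take part in the recovery was not tested.

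The promoters of SAMD4B and UNKL in RefSeq (GRCh38.p14, 300 bases at chr19:39342171-39342470 and chr16:1379603-1379902) are alike in composition, that of UNKL lying inside the annotated span of the gene. Each holds 79.3% G and C and 5 copies of the GC box GGGCGG, counted on both strands, with 50 and 41 CpG pairs where the median over 35116 promoters is 14. Of all promoters 45.0% held at least 1 GC box and 5.1% held 5 or more. By symbol 6 of the 9 genes matched, and the promoters listed for SAMD4A, ELAVL2, ELAVL4 and PUM2 held 0 to 4. Richness in CpG was shared with members that passed no test, with up to 40 pairs in a promoter of ELAVL2 (74.3% G and C) and 39 in one of PUM2 (75%).

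Neighbouring genes were examined next. None of the 3 nearest tested genes on either side of SAMD4B passed the test. PAF1, a transcription elongation factor gene that overlaps an exon of SAMD4B on the opposite strand, had a log2 fold change of 0.04 (adjusted p = 0.832), and MED29, PAK4 and FBXO17 had 0.12, 0.10 and 0.21. Around UNKL, TSR3, a ribosomal RNA modification enzyme gene, fell by 0.49 (adjusted p = 0.00286), and GNPTG, which overlaps UNKL on the opposite strand, had -0.45 (adjusted p = 0.0369, and above 0.05 in 9 of 14 alternatives, leaving out either of si-SCR replicates 1 and 3 and si-CyCoNP replicates 2 and 3 among them). UQCC4 and CLCN7 had -0.29 and 0.14 and did not pass. None of the neighbours of UNKL given here rose. ENSG00000269246 and RN7SL566P beside SAMD4B and ENSG00000260132 beside UNKL had standard errors of 1.27 to 1.45 on the log2 scale and gave no usable value.

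**Figure D5:**
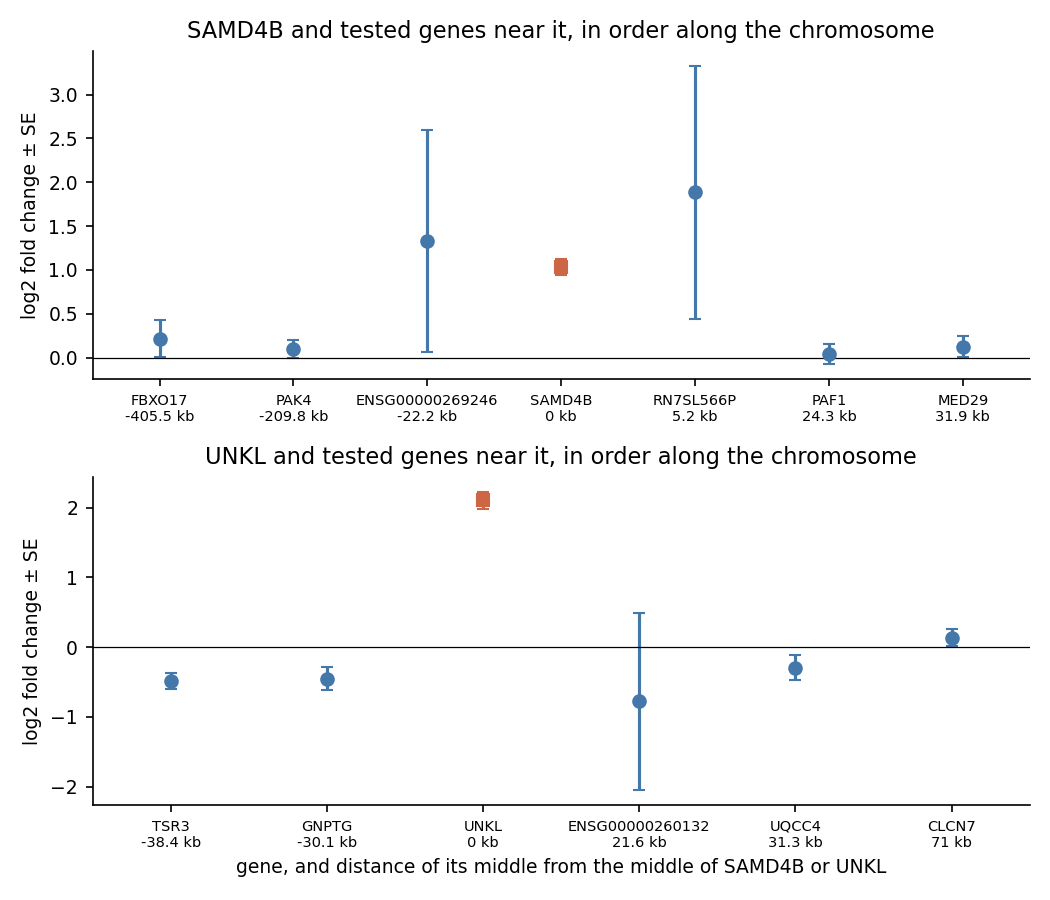
Log2 fold change ± SE (vertical axes) of SAMD4B (top) and UNKL (bottom) and of tested genes near them on each side, in chromosome order with the distance between gene middles in kb. SAMD4B at 1.04 stands above PAF1 at 0.04 and MED29 at 0.12, and UNKL at 2.11 above all genes plotted beside it, while 3 little-expressed genes have errors of more than 1.

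Likeness was measured by Pearson correlation of log2 TMM-normalised counts over the 6 libraries. The genes most like SAMD4B were ZNF426 (r = 0.9992), COLEC11 (0.998) and POLR2D (0.998), and those most like UNKL were KDM2A (0.9997), PSMC2 (0.9996) and ZNF197 (0.9989). The 6 points fall into the study's groups, and 649 and 724 genes reached r above 0.95 with SAMD4B and UNKL, so the likeness mostly tells genes that differ between the groups.

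To place the members in their pathway, the shared machinery was examined. SAMD4 and PUM proteins act through deadenylation and decapping, and of 29 such genes, all tested, 3 rose and 4 fell, with a median log2 fold change of -0.04 beside 0.01 for all genes. BTG1, which binds the deadenylase and speeds poly(A) loss, fell from 10.99 ± 1.85 to 5.47 ± 0.732 FPKM (log2 fold change -1.07, SE 0.143, adjusted p = 1.62e-06), and its log2 fold change was -0.91 when si-SCR replicate 1 was left out and -0.99 when si-CyCoNP replicate 2 was. Its relatives BTG3 and TOB1 fell by 0.62 (adjusted p = 0.00322) and 0.41 (adjusted p = 0.00629) on the log2 scale. EDC3, an enhancer of decapping, rose by 0.45 (adjusted p = 0.00176), and DCP2, the decapping enzyme, by 0.31 (adjusted p = 0.027). The DCP2 call was lost in 7 of 14 alternatives, among them those without si-SCR replicates 1 or 3 or si-CyCoNP replicates 1 or 3. The remaining gene that fell was CNOT8, a deadenylase subunit (-0.39, adjusted p = 0.0178), and BTG2 and TOB2, relatives of BTG1, had -0.04 each and did not pass (adjusted p = 0.879 and 0.819). These 3 genes are outside the rule for named genes and were added after their values were seen. With library totals alone the median of the list was 0.03, and that of all genes moved likewise, to 0.07.

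Among 31 other mRNA-binding regulators of stability and translation, 24 were tested, of which 8 rose and 7 fell (median -0.09). TRIM71, a stem cell ubiquitin ligase and mRNA repressor, rose from 0.853 ± 0.157 to 3.19 ± 0.252 FPKM (log2 fold change 1.82, SE 0.189, adjusted p = 2.78e-08). With a control mean under 1 FPKM, TRIM71 entered the test only through the si-CyCoNP group, where it was high. Its p-value is therefore no separate support for the rise, though it is counted among the 8. CPEB2, which binds cytoplasmic polyadenylation elements, fell from 4.61 ± 0.621 to 2.28 ± 0.176 FPKM (log2 fold change -1.08, SE 0.156, adjusted p = 5.15e-06), with -0.95 without si-SCR replicate 1. ZFP36L2, which drives the decay of AU-rich mRNAs, and FXR2 rose by 0.77 (adjusted p = 6.87e-07) and 0.40 (adjusted p = 0.0068). The stress granule protein gene TIA1 and FMR1, the gene of the fragile X protein, fell by 0.63 (adjusted p = 2.91e-05) and 0.61 (adjusted p = 0.000368).

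Of 19 mRNAs known from textbooks as ELAVL targets, 15 were tested, 1 rose and 2 fell (median -0.09). MYCN, an oncogene often amplified in this type of tumour, went from 428 ± 19 to 806 ± 57.7 FPKM (log2 fold change 0.84, adjusted p = 2.65e-09). The cell cycle gene CCND1 fell by 0.40 (adjusted p = 8.23e-05) and the deacetylase gene SIRT1 by 0.40 (adjusted p = 0.015). The SIRT1 call was lost without si-SCR replicate 1 or si-CyCoNP replicate 3, and without si-SCR replicate 3 the list had 6 calls. Of 10 PUM target RNAs, 9 were tested, 3 rose and 4 fell (median 0.19). NORAD, a long noncoding RNA that binds PUM proteins through many copies of their motif, rose from 81.7 ± 9.71 to 135 ± 3.95 FPKM (log2 fold change 0.66, adjusted p = 8.41e-07), and E2F3, a cell cycle transcription factor gene, by 0.44 (adjusted p = 0.000467). The cell cycle inhibitor gene CDKN1B fell by 0.38 (adjusted p = 0.00527), a call that was lost without si-CyCoNP replicate 1. Without si-SCR replicate 2 or si-CyCoNP replicate 3 the number of calls among PUM targets was 4 instead of 7. The lists moved in both directions. Past the adjusted p were 7 of 29 deadenylation and decapping genes and 15 of 24 other mRNA-binding regulators, TRIM71 included. Of the ELAVL targets 3 of 15 passed and of the PUM targets 7 of 9, beside 28.4% of all genes tested. These lists hold mostly coding genes, and of the tested coding genes with a 3′UTR 17.3% passed upwards and 18.1% downwards. The lists were not tested as sets.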

How the data were processed

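The authors prepared stranded total RNA libraries after ribosomal RNA depletion. Per the submitters' processing notes, reads passed through Trimmomatic 0.39, cutadapt 3.2 and Bowtie2 2.4.2 and were aligned to GRCh38 with STAR 2.7.7a. The deposited counts are raw counts per Ensembl gene made by the authors from uniquely mapping fragments, so paralogs and genes sharing exons are less certain. The deposited FPKM values, also made by the authors, are those counts scaled by gene length and library total. Group and replicate came from the sample titles.

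The 13966 genes whose mean reached 1 FPKM in si-SCR or in si-CyCoNP entered a quasi-likelihood test (edgeR 4.0.16 under R 4.3.3) on TMM-normalised counts, with Benjamini-Hochberg adjustment over all genes. A call needs an adjusted p under 0.05 and, where stated, a log2 fold change beyond 1. Alternatives were other size factors, DESeq2 (also the tool of the study, here version 1.42.0), other filters, a replicate block, limma 3.58.1 on log2 FPKM, and leaving out each library. The test was tested on simulated data. Family shares were compared with exact permutation tests over libraries. The depth of 3762009 to 4799407 counts per library limits rare mRNAs, and no intervals from counting are given for replicate means.

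Named were all 9 members, the targeted gene, list members called beyond a log2 fold change of 1, otherwise the 2 highest and 2 lowest past the adjusted p in each list, and for SAMD4B and UNKL the 3 most correlated genes and the 3 nearest tested genes on each side. Marker genes and sequence words were chosen for description. Members and lists were chosen with earlier results of these data known. Sequences come from the GRCh38 genome with GENCODE annotation, and RefSeq. Some genes that this rule or the marker lists take in are not reported here.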

Additional observations from a re-analysis of the deposited data

How the results depend on the processing

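Over 14 alternatives, the log2 fold change of SAMD4B ranged from 0.97 to 1.11 and that of UNKL from 1.98 to 2.33. ELAVL4 stayed negative and ELAVL3 positive throughout, and neither passed on either log2 FPKM scale, so that the members past an adjusted p of 0.05 (SAMD4B and UNKL not counted) numbered 0 there in place of 2, and 1 to 2 with 1 library left out. On log2(FPKM + 1), 202 genes were called higher and 179 lower in place of 319 and 416. With 1 library left out these counts were 295 to 400 and 359 to 507. The ELAVL2 log2 fold change of -0.03 turned to 0.036 with library totals, 0.021 and 0.037 on log2(FPKM + 1) and log2(FPKM + 0.1), and lay between -0.20 and 0.22 with 1 library left out (0.22 if si-SCR replicate 2 is dropped, 0.11 if si-CyCoNP replicate 3 is). The deadenylation and decapping median of -0.04 turned to 0.029 with library totals and 0.071 and 0.077 on the FPKM scales, and lay between -0.036 and 0.02 with 1 library left out (0.02, 0.008 and 0.003 if si-SCR replicate 1, si-SCR replicate 2 or si-CyCoNP replicate 2 is dropped). Library totals move the median of all genes to 0.07. Calls in that list numbered 3 and 2 on the FPKM scales in place of 7. Calls among ELAVL targets numbered 2 to 6, and among PUM targets 4 to 9, with 1 library left out. PUM target calls numbered 4 with DESeq2 and 2 on each FPKM scale. From counts scaled to the library total without length, the group difference was 207 in place of 317 for the ratio of SAMD4B to SAMD4A and 1.65 in place of 1.22 for that of UNKL to UNK. BTG1 stayed lower but not beyond 1 on the log2 scale with library totals (-0.998) and on both FPKM scales (-0.88 and -0.99), as did CPEB2 on the latter (-0.77 and -0.98), and BTG3, TOB1, DCP2, SIRT1 and CDKN1B did not pass on either FPKM scale. SAMD4A could be fitted only without the filter. The causes of these shifts were not tested.

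Libraries with the same replicate number in the labels deviated together only weakly (r = 0.091, 0.073 and 0.108), so they were taken to share only a number, although every library correlated best with its own number, which is a hint from the data and not from the design. With the replicate number as a block, PUM2 passed the test (-0.19, adjusted p = 0.0368), 5 ELAVL targets passed in place of 3, and the calls of ELAVL3 and ELAVL4 were kept.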
